A study of Mus musculus with 6 samples.

Results

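The genes described here build fatty acids and join them into triglycerides. They comprise 36 genes chosen by function, of 18193 genes that the mouse array measured with a probe set of 1 gene symbol, and each is represented by its brightest probe set over all 6 arrays. Dim genes were set aside: a gene was kept where 3 or more arrays reached a log2 value of 4. Of the 36 members 35 were kept, and of all genes 10009. Elovl3 was the member set aside, and it is described with the other elongases. The arrays held liver RNA of male C57BL/6 mice at 6 weeks of age, 1 mouse each. In 3 mice (KO 1 to KO 3) p14 was knocked out conditionally in the liver, and 3 mice (WT 1 to WT 3) were controls labelled p14 WT. The recombinase, its promoter and the control mice's alleles are not given in the sources used here, so whether the groups share an allele is not known. Nor do these sources give the feeding state or the time of day at collection. All values are log2 expression levels, and all differences are KO minus WT.

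Fatty acid synthesis in hepatocytes starts from citrate, which leaves the mitochondrion and is split to acetyl-CoA. Acetyl-CoA carboxylase makes malonyl-CoA, fatty acid synthase builds palmitate from it, and enzymes of the endoplasmic reticulum then elongate, desaturate and esterify the products to glycerol. Insulin and sugar drive the genes of this route through the transcription factors SREBP-1c and ChREBP. The product of Lamtor2, p14, belongs to the Ragulator complex on late endosomes, which recruits mTORC1, a kinase known to promote SREBP-1c activity. The comparison of KO with WT asks how the transcripts of this route differ between livers with and without the p14 knockout.

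One member, Hacd4, was called lower in KO liver, and none was called higher. The Hacd4 call was lost in 12 of 17 alternative analyses. Of the other members, 7 lay lower on every KO array than on any WT array without passing the test, among them Scd2, Mid1ip1, Acacb and Acly. With Hacd4 these are 8 of 35 members, where 14% of all genes had their groups apart in this direction. Thrsp and Acsl4 lay higher on every KO array, 2 of 35 members against 6.54% of all genes. On the probe sets used, triglyceride-forming enzymes and the transcription factors Srebf1 and Mlxipl overlapped between the groups. KO 1 held the lowest values of most members, whereas KO 3 lay within or above the WT range for Fasn, Scd1, Elovl5, Acaca and Me1.

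Hacd4 had the called decrease, and Fasn is the central enzyme of the route. Mid1ip1 and Thrsp are paralogs that differed in opposite directions on the probe sets used. Neither of the paralogs was called, and a dimmer probe set of Thrsp was lower in KO. The regulatory windows of these 4 members are shown because the genes carry contrasts described next. Each is the 250 bases before a RefSeq transcription start (GRCm38.p6), 5′ to 3′ on the gene's strand: Hacd4 at chr4:88438916-88439165 (minus strand), Mid1ip1 at chrX:10717115-10717364 (plus), Thrsp at chr7:97417551-97417800 (minus) and Fasn at chr11:120824548-120824797 (minus). Capitals mark CCAAT boxes (CCAAT) and GC boxes (GGGCGG) on either strand.
Hacd4: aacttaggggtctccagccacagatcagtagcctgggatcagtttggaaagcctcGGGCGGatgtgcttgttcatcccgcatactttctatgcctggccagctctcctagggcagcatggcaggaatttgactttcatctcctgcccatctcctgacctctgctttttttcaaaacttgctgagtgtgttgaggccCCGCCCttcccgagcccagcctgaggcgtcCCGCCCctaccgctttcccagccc
Mid1ip1: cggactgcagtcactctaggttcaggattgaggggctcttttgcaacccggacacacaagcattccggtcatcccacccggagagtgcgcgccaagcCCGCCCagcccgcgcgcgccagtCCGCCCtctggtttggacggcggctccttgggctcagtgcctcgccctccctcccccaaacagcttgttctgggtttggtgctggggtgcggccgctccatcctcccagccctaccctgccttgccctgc
Thrsp: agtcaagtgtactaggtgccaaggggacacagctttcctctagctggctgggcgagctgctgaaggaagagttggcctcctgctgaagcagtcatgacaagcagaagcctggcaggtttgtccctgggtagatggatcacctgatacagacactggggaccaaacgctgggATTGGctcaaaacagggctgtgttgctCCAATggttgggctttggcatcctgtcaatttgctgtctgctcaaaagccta
Fasn: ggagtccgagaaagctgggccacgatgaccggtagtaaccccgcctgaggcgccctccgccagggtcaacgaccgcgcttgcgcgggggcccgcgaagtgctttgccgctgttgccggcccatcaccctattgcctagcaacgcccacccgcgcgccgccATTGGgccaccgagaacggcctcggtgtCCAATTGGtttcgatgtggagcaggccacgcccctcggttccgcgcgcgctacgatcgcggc
The Hacd4 window held 3 GC boxes and the Mid1ip1 window 2, with no CCAAT box in either. Thrsp held 2 CCAAT boxes and Fasn 3, of which 2 overlap, with no GC box in either. A CCAAT box was present in 33.85% of all 32851 such windows and a GC box in 32.74%. RefSeq windows were at hand for 30 of the members, 40 windows in all. Of these 40 windows 19 held a CCAAT box and 22 a GC box. The E-box CACGTG, which USF proteins bind and which forms part of ChREBP sites, was found in 5 of the 40 windows (those of Elovl5, Hacd3, Lpin2, Mlxipl and Slc25a1) and in 6.02% of all windows. The core of the sterol response element, searched as TCACNCCAC on both strands, was found in 1 of the 40, of Mlxipl, and in 1.05% of all windows. The TATA box TATAAA was found in 2 of the 40, of Acacb and Pklr, and in 12.37% of all windows.

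The labels were checked on Lamtor2, which measured 10.08, 10.19 and 10.11 on the KO arrays and 11.32, 11.29 and 11.35 on the WT arrays (difference -1.19, limma adjusted p = 0.0104). The KO signal was 43.8% of the WT signal. The hepatocyte markers Alb, Apoa1, Ttr, Serpina1c, Cps1 and Tat were bright on all arrays, with a summed level of 18.36 to 18.44 in KO and 18.39 to 18.46 in WT. WT 2 stood apart by skeletal muscle transcripts (summed level 14.89, against 5.28 to 5.58 on the other arrays), and KO 3 lay between the groups on the first principal component, at -2.58 against -30.39 and -22.27 on KO 1 and KO 2. All 8 macrophage markers were lower in the KO mean, with a summed level of 12.98, 13.16 and 13.96 on KO 1, KO 2 and KO 3 and 14.18 to 14.27 in WT. Of 7 endothelial markers 6 were lower, with overlapping sums (12.24 to 12.70 and 12.49 to 12.83). Among them Lyve1 and Thbd were called, at -1.32 and -0.95 (limma adjusted p = 0.0353 for each). Clec4g, the brightest of the 7, differed by 0.07. Of 6 stellate markers Des was above 4 on WT 2 alone, and 4 of the 5 others were lower (12.06 to 12.51 and 12.31 to 13.06). The adipocyte markers Adipoq, Lep and Retn, the cholangiocyte markers Krt19, Krt7 and Sox9 and the lymphocyte markers Cd3e and Cd79a lay below 4 on all arrays. Fabp4, Epcam and Ptprc were the measured markers of these types, at differences of -0.77, 0.08 and -0.61. In whole liver, fewer cells of a type and less RNA per cell cannot be told apart.

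Across the 35 measured members, 24 were lower and 11 higher in the KO mean, with a median difference of -0.15. Over all 10009 genes 58.3% were lower, with a median of -0.04. In the limma fit over all genes, 1 member passed a Benjamini-Hochberg adjusted p under 0.05, and it was lower, where 0.170% of all genes passed in either direction and 0.150% passed as lower. The groups did not overlap for 8 members that were lower, against 14% of all genes, and for 2 that were higher, against 6.54%. An unadjusted p under 0.05 was reached by 9 members, 7 lower and 2 higher, where 14.5% of all genes reached it. The median over members was -0.07 without WT 3, -0.08 without KO 1 and -0.10 without WT 1. It was -0.08 when the arrays were centred on their medians and -0.27 without KO 3 and WT 2, which stand apart.

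**Figure D1:**
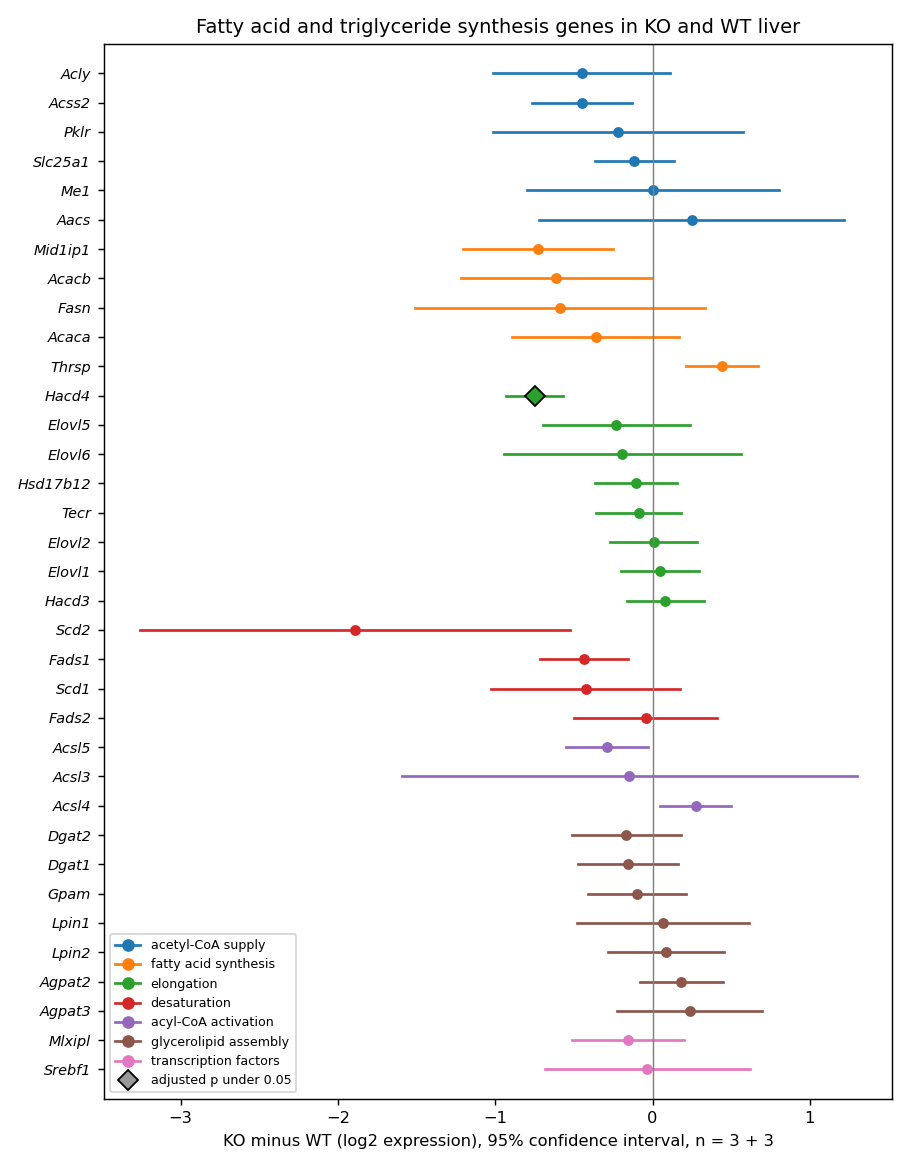
Difference between KO and WT (log2 expression) for the 35 measured members, grouped by role, with 95% confidence intervals from the fit over all genes and 3 arrays per group. Hacd4, the diamond, lies at -0.75 and is the only called member, while Scd2 at -1.89 has the widest distance from 0 and a wide interval.

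The first group supplies acetyl-CoA and reducing power. By limma 0 of its 6 members were called, and 1 reached an unadjusted p under 0.05. Acly, ATP citrate lyase, splits cytosolic citrate. It measured 12.17, 12.84 and 12.93 on the KO arrays and 12.94, 13.03 and 13.32 on the WT arrays. The groups met but did not overlap, as KO 3 lay just below WT 1 (difference -0.45, 95% confidence interval -1.02 to 0.11, limma adjusted p = 0.406). Without KO 1 the difference was -0.21. Acss2, which activates acetate to acetyl-CoA, measured 12.73, 12.80 and 13.00 in KO and 13.19, 13.15 and 13.52 in WT. Every KO array lay below every WT array, and the difference of -0.45 ± 0.13 (SE, n = 3 each) had a limma adjusted p of 0.267. Further probe sets showed -0.44 and -0.21 for Acly, and -0.41 and 0.29 for Acss2.

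Slc25a1, the mitochondrial citrate carrier, differed by -0.12 and Pklr, liver pyruvate kinase, by -0.22, and for both the groups overlapped. Pklr was 0.07 higher in KO when KO 1 was left out. Aacs, which activates acetoacetate, measured 10.85 on KO 3 and 10.48 on WT 3 and stayed below 10 on the other 4 arrays, so its difference of 0.25 mixed a high array from each group. Without KO 3 it was -0.10. Me1, malic enzyme, a source of NADPH, measured 12.41, 12.07 and 13.33 in KO and 12.62, 12.53 and 12.65 in WT. KO 3 lay above all WT arrays and the other KO arrays below them, and the group means were 12.60 and 12.60. Its difference was -0.36 without KO 3.

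The second group forms malonyl-CoA and palmitate. By limma 0 of its 5 members were called, and 2 that were lower and 1 that was higher reached an unadjusted p under 0.05. Mid1ip1, which helps acetyl-CoA carboxylase to polymerise and so activates it, measured 10.45, 11.07 and 11.05 in KO and 11.55, 11.45 and 11.74 in WT. All KO arrays lay below all WT arrays, by a mean of -0.73 (95% confidence interval -1.20 to -0.25, limma adjusted p = 0.250). Thrsp, also called Spot 14, is its paralog and a lipogenic nuclear protein induced by thyroid hormone and feeding. It went the other way and measured 14.60, 14.85 and 14.71 in KO and 14.26, 14.19 and 14.38 in WT. The groups were separate at a difference of 0.44 (0.21 to 0.67, limma adjusted p = 0.196), the smallest adjusted p of the members after Hacd4. Without KO 3 the difference was 0.45 for Thrsp and -0.83 for Mid1ip1. The value of Thrsp depended on the probe set: with its probe sets averaged, 1 of which is dim and lower in KO, the difference was 0.04 (limma adjusted p = 0.888).

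Acetyl-CoA carboxylase has 2 forms, the cytosolic Acaca and the mitochondrial Acacb, whose malonyl-CoA restrains fatty acid oxidation. Acacb measured 8.47, 8.98 and 8.93 in KO and 9.29, 9.07 and 9.86 in WT. The groups did not overlap, yet KO 2 and WT 2 were close, and the difference of -0.61 had a limma adjusted p of 0.343. It was -0.39 without WT 3. Acaca measured 9.20, 9.64 and 9.98 in KO and 10.07, 9.76 and 10.07 in WT, so that KO 3 lay within the WT range (difference -0.36, limma adjusted p = 0.463). Its difference was -0.16 without KO 1 and -0.55 without KO 3. A further, dimmer probe set of Acaca showed 0.11, and with the probe sets averaged the difference was -0.13 (limma adjusted p = 0.896). Fasn, fatty acid synthase, measured 11.69, 12.73 and 13.13 in KO and 13.11, 12.91 and 13.29 in WT. KO 1 and KO 2 lay below every control and KO 3 among them, with a KO mean of 12.52 ± 0.74 against 13.10 ± 0.19 (SD, n = 3 each). The difference of -0.59 was not called (limma adjusted p = 0.490), and it was -0.17 without KO 1 and -0.89 without KO 3.

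**Figure D2:**
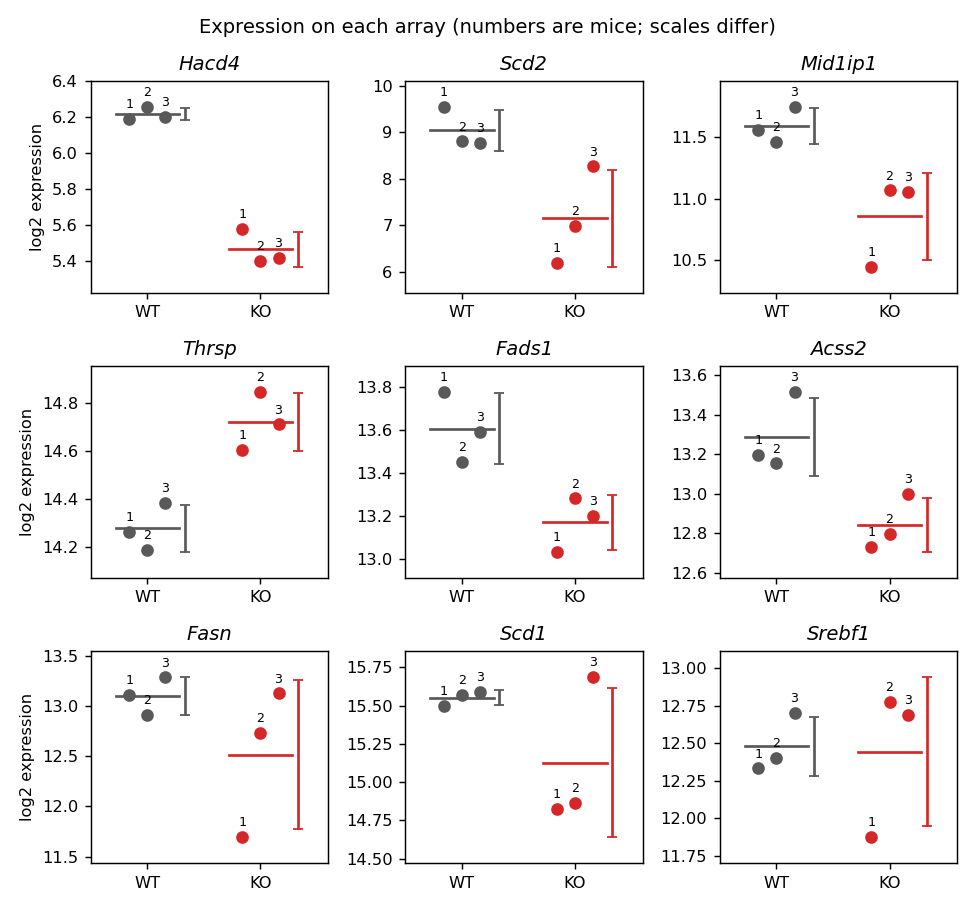
Log2 expression of 9 members on each array, with points numbered by mouse, horizontal lines for group means and bars for 1 SD (n = 3); the vertical scales differ and do not start at 0. In Hacd4, Scd2, Mid1ip1, Fads1 and Acss2 all KO arrays lie below all WT arrays, in Thrsp above them, and in Fasn, Scd1 and Srebf1 the groups overlap.

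Elongation adds 2-carbon units in a cycle of condensation by ELOVL enzymes, reduction, dehydration by HACD enzymes and a last reduction. Hacd4, a member of the 3-hydroxyacyl-CoA dehydratase family, measured 5.58, 5.40 and 5.42 in KO and 6.19, 6.26 and 6.20 in WT. The arrays of each group lay close together and far from the other group. Hacd4 fell by 0.75 ± 0.07 (SE, n = 3 each, limma adjusted p = 0.0411), which left 59.4% of the WT signal. Its 1 probe set was the dimmest of the 35 used for the measured members, and the adjusted p lay near the threshold. The call held in 5 of 17 alternative analyses and was lost in 12, with adjusted p values from 0.0282 to 0.242 by limma, while the difference stayed between -0.81 and -0.68. When 1 KO array was left out, the limma adjusted p was 0.083 (KO 1), 0.171 (KO 2) or 0.0428 (KO 3). When 1 WT array was left out, it was 0.215 (WT 1), 0.168 (WT 2) or 0.179 (WT 3). With quantile normalisation it was 0.0701 and with median centring 0.0656 (limma). Macrophage markers moved the same way between the groups, all 8 of them lower. Their summed levels were 12.98, 13.16 and 13.96 on KO 1, KO 2 and KO 3 and 14.18 to 14.27 in WT. Among the KO arrays this sum was highest on KO 3, whereas Hacd4 was highest on KO 1. Of 7 endothelial markers 6 were lower too, with Lyve1 and Thbd among the called genes. The part of either cell type in the Hacd4 result was not tested.

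The other dehydratase, Hacd3, differed by 0.08, with a 95% confidence interval of -0.16 to 0.33. A further probe set of Hacd3 showed 0.46, with 11.42, 11.67 and 11.36 in KO and 10.91, 11.22 and 10.95 in WT (limma adjusted p = 0.262 with every probe set fitted), so that its groups were apart, and another showed 0.04. Groups overlapped as well for Hsd17b12, the ketoacyl-CoA reductase (-0.11), and Tecr, the enoyl-CoA reductase (-0.09). Among the condensing enzymes, Elovl5, which extends polyunsaturated chains, measured 14.13, 14.25 and 14.82 in KO and 14.65, 14.55 and 14.68 in WT. KO 1 and KO 2 lay below the controls and KO 3 above them, and the difference was -0.23 with all arrays, -0.44 without KO 3, -0.09 without KO 1 and -0.16 without KO 2. Elovl6, which extends palmitate to stearate, measured 10.99, 11.81 and 12.05 in KO and 11.76, 11.57 and 12.10 in WT, and only KO 1 stood below the WT arrays. Its difference was -0.19, 0.12 without KO 1 and -0.69 with its probe sets averaged. Elovl1, an elongase of very long saturated chains, and Elovl2, of very long polyunsaturated ones, differed by 0.05 and 0.01.

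Elovl3, an elongase that mouse liver expresses in a daily rhythm and more strongly in males, measured 7.63 on KO 1, 4.11 on KO 2 and 3.62 on KO 3. On the WT arrays it measured 3.05, 3.09 and 3.05. Only KO 1 and KO 2 reached 4, which is why the filter set the gene aside. In the fit with no filter its difference of 2.06 had a limma adjusted p of 0.781, since KO 1 alone supplied most of it.

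All 4 desaturase members were lower in the KO mean, though Fads2 was 0.02 higher after median centring. By limma 0 of them were called, and 2 reached an unadjusted p under 0.05. Scd2, a stearoyl-CoA desaturase that adult liver expresses less than other tissues do, measured 6.19, 6.99 and 8.27 in KO and 9.55, 8.81 and 8.77 in WT. Every KO array lay below every WT array, but KO 3 lay nearer to WT 2 and WT 3 than to the other KO arrays. The KO mean was 7.15 ± 1.05 and the WT mean 9.04 ± 0.44 (SD, n = 3 each). The difference of -1.89 (95% confidence interval -3.26 to -0.53) was the most negative of the members and had a limma adjusted p of 0.270. Without KO 3 it was -2.45 (limma adjusted p = 0.0676). A further probe set of Scd2 showed -1.79, with 3.87, 4.56 and 6.23 in KO and 7.37, 6.68 and 5.98 in WT, where KO 3 overlapped the controls. On the KO arrays the macrophage marker sums had the same order as Scd2, at 12.98, 13.16 and 13.96. So did the endothelial (12.24, 12.42 and 12.70), stellate (12.06, 12.27 and 12.51), hepatocyte (18.36, 18.39 and 18.44), lymphocyte and adipocyte sums. The cholangiocyte and skeletal muscle sums did not. On the WT arrays the macrophage sums, at 14.18, 14.27 and 14.20, did not have the order of Scd2. The part of any cell type in the Scd2 result was not tested.

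Scd1, the main liver desaturase of saturated fatty acids, measured 14.83, 14.87 and 15.69 in KO and 15.50, 15.57 and 15.59 in WT. KO 1 and KO 2 lay below the narrow WT range and KO 3 above it, so that the SD was 0.49 in KO and 0.05 in WT (n = 3 each). The difference of -0.43 was not called (limma adjusted p = 0.447). Without KO 3 Scd1 passed at -0.71 (limma adjusted p = 0.0354), and it then joined Hacd4 among the called members, in a fit where 140 of all genes were called. It was -0.28 without KO 1 and -0.29 without KO 2 (limma adjusted p = 0.701 and 0.655). With both KO 3 and WT 2 left out it was -0.70 and did not pass (limma adjusted p = 0.149). Fads1, the delta-5 desaturase of polyunsaturated fatty acids, measured 13.03, 13.28 and 13.20 in KO and 13.78, 13.45 and 13.59 in WT. The groups were separate, with KO 3 among the other KO arrays, at a difference of -0.44 ± 0.11 (SE, n = 3 each, limma adjusted p = 0.243). On a further, dimmer probe set of Fads1 the groups overlapped, at a difference of -0.24. It measured 5.92, 8.39 and 7.93 in KO and 7.84, 7.44 and 7.68 in WT. There KO 2 and KO 3 lay above every WT array, and KO 1 alone lay below them. Fads2, the delta-6 desaturase, differed by -0.04 (95% confidence interval -0.50 to 0.41).

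Acyl-CoA synthetases activate free fatty acids for esterification or oxidation. By limma 0 of the 3 members were called, while 1 lower and 1 higher reached an unadjusted p under 0.05. Acsl4, which prefers arachidonic acid, measured 10.45, 10.69 and 10.65 in KO and 10.23, 10.36 and 10.38 in WT. All KO arrays were above all WT arrays by a mean of 0.27 (limma adjusted p = 0.299), and further probe sets showed 0.46 and 0.36. Acsl5 measured 13.62, 13.64 and 13.93 in KO and 13.97, 13.98 and 14.11 in WT. KO 3 lay just below WT 1, and the difference of -0.29 had a limma adjusted p of 0.320. Acsl3, a synthetase found on lipid droplets, measured 7.71, 9.39 and 9.96 in KO and 9.39, 9.26 and 8.85 in WT. KO 1 lay far below every other array and KO 3 above them all, so the difference was -0.15 with all arrays and 0.51 without KO 1.

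In glycerolipid assembly 3 of the 7 members were lower and 4 higher on the probe sets used, all with overlapping groups, and the median was 0.07. By limma 0 were called, and 0 reached an unadjusted p under 0.05. Agpat2 and Agpat3, acyltransferases that form phosphatidic acid, had the smallest p of the group. Agpat2 measured 12.44, 12.61 and 12.40 in KO and 12.12, 12.41 and 12.37 in WT, where KO 3 and WT 2 were nearly equal (difference 0.18, limma adjusted p = 0.461). Agpat3 measured 11.21, 11.05 and 10.58 in KO and 10.91, 10.59 and 10.62 in WT (difference 0.24, limma adjusted p = 0.562), but its 3 further probe sets showed -0.10, -0.10 and -0.07. Gpam, the mitochondrial enzyme that starts glycerolipid synthesis, differed by -0.10. A further, dimmer probe set of Gpam went the other way, at 0.40, with 9.64, 9.92 and 9.99 in KO and 9.47, 9.63 and 9.26 in WT, and its groups were barely apart (limma adjusted p = 0.313 with every probe set fitted). The lipins Lpin1 and Lpin2, which remove the phosphate of phosphatidic acid, differed by 0.07 and 0.08. Of the further probe sets of Lpin2, 1 had every KO array above every WT array, with 10.99, 11.35 and 11.17 in KO and 10.93, 10.51 and 10.28 in WT (limma adjusted p = 0.294 with every probe set fitted). The last step belongs to Dgat1 and Dgat2, at -0.15 and -0.17, with 95% confidence intervals of -0.47 to 0.16 and -0.51 to 0.18.

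For both transcription factors of the route the groups overlapped. Srebf1, which encodes SREBP-1, measured 11.87, 12.78 and 12.69 in KO and 12.33, 12.40 and 12.70 in WT. KO 1 was the lowest of all arrays and KO 2 the highest, and the difference was -0.03 (95% confidence interval -0.69 to 0.62), or 0.25 without KO 1 and 0.03 after median centring. Mlxipl, which encodes ChREBP, measured 11.65, 11.98 and 11.75 in KO and 11.92, 11.75 and 12.18 in WT. Its difference was -0.16 (-0.51 to 0.20), again with KO 1 the lowest array. It was -0.04 without WT 3, -0.08 without KO 1, -0.25 without KO 2 and -0.26 without WT 2. These are transcript levels, and the processing of SREBP-1 to its active form was not measured.

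**Figure D3:**
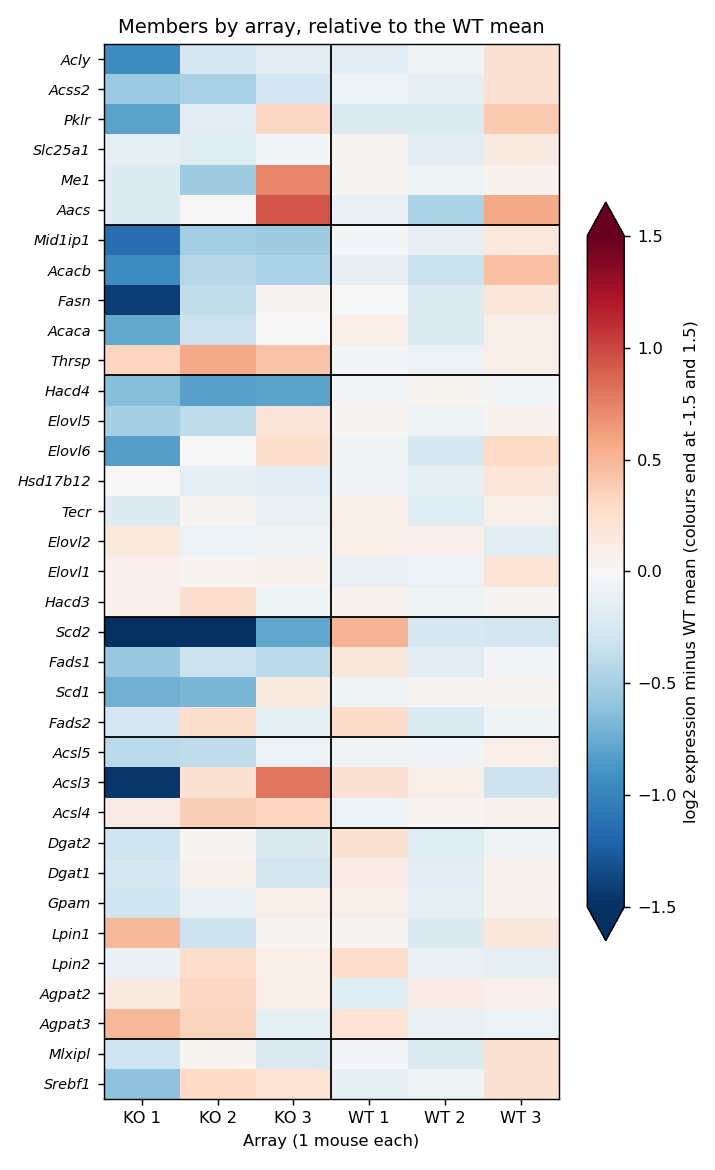
Log2 expression of the 35 members on each array minus the mean of the WT arrays, with rows grouped by role and lines between the groups; colours end at -1.5 and 1.5. KO 1 has the most negative entries (Fasn, Acsl3, Scd2 and Mid1ip1 among them), and on KO 3 Me1, Aacs and Acsl3 are above the WT mean.

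The KO arrays differed among themselves more than the controls did for 23 of the 35 members, by SD, as for 55.5% of all genes. KO 1 was the lowest KO array for 24 members, KO 2 for 6 and KO 3 for 5, whereas over all genes these shares were 35.6%, 31.1% and 33.3%. Relative to the WT mean, the median over members was -0.30 on KO 1, -0.11 on KO 2 and -0.02 on KO 3, and the median over all genes was -0.03 on each. The median over members was 0.01 on WT 1, -0.13 on WT 2 and 0.09 on WT 3. By this measure KO 2 and KO 3 lay within the span of the WT arrays, and KO 1 lay below it. On KO 1 23 members lay below all 3 WT arrays (65.7%, against 36.6% of all genes), on KO 2 16 (45.7%, against 35.9%) and on KO 3 13 (37.1%, against 32.9%). In 5 members, Fasn, Scd1, Acaca, Elovl5 and Me1, both KO 1 and KO 2 but not KO 3 lay below the controls, a pattern seen for 9.5% of all genes. In 8 others KO 1 alone did so, Srebf1, Mlxipl, Pklr, Elovl6, Acsl3, Gpam, Fads2 and Tecr, as in 7.6% of all genes. These patterns were counted after the values had been seen and were not tested.

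Transcripts of the acute-phase response differed between the same KO arrays. Saa1, serum amyloid A, read by a probe set that may also detect its near-identical paralog Saa2, measured 15.83 and 15.78 on KO 1 and KO 2. It measured 12.22 on KO 3, and the WT arrays lay between 10.83 and 12.03. The mean over 15 acute-phase genes was 14.40, 14.31 and 12.95 on the KO arrays in order, while WT arrays lay between 12.83 and 13.09. Of these genes 13 were higher and 2 lower in the KO mean, where 58.3% of all genes were lower. The largest differences were those of Saa2, Lcn2, Saa1 and Orm2, at 4.55, 3.49, 3.10 and 1.44. Fga, Fgb, Fgg and Crp differed by 0.03 to 0.04 and Saa3 by -0.56. By limma 0 of 15 were called and 6 reached an unadjusted p under 0.05, where 14.5% of all genes reached it. Itih4, Steap4, Hpx and Saa1 had the smallest p, at differences of 0.32, -0.30, 0.19 and 3.10. The 18S rRNA controls measured 9.25, 9.12 and 8.50 on the KO arrays and 7.77 to 8.44 in WT. The part of either in the low values of Fasn, Scd1, Acaca, Elovl5 and Me1 on KO 1 and KO 2 was not tested.

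**Figure D4:**
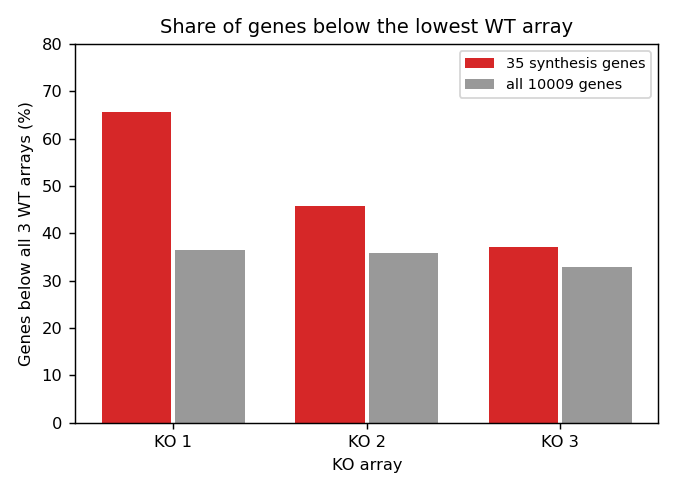
Percentage of the 35 members (red) and of all 10009 genes (grey) whose value on a KO array lay below all 3 WT arrays. The share of members is 65.7% on KO 1, 45.7% on KO 2 and 37.1% on KO 3, while that of all genes stays between 32.9% and 36.6%.

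Many members were measured by more than 1 probe set, and 24 had a further one past the filter. Of these 39 further probe sets 27 had the direction of the one used and 12 the other. In Scd2, Scd1, Acly, Pklr and Acsl4 every further probe set had the direction of the one used. For Thrsp a further bright probe set showed 0.68, with every KO array again above every WT array, whereas a dimmer one showed -0.99 (6.24, 6.83 and 6.44 in KO and 7.28, 7.99 and 7.22 in WT). Elovl6 had a dimmer probe set at -1.82 (5.35, 6.13 and 5.61 in KO and 7.20, 7.14 and 8.21 in WT) beside -0.19 and -0.06. For Lpin2 the further values were 0.33, 0.60 and 1.27, each higher than the 0.08 of the probe set used. None of these probe sets was called when every probe set was fitted by itself (limma adjusted p = 0.251 for the dim one of Thrsp, 0.205 for that of Elovl6 and 0.405 for the highest of Lpin2). Where in the transcript each probe set lies was not analysed here.

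**Figure D5:**
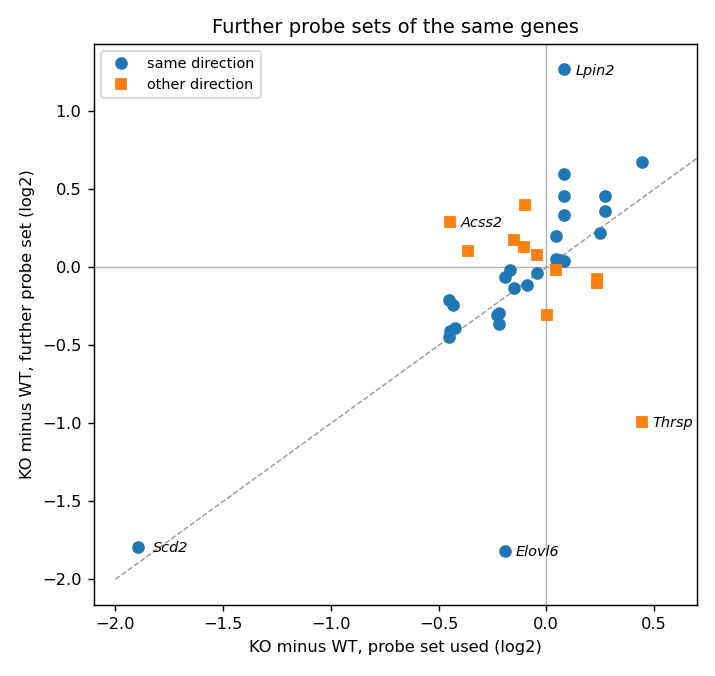
Difference between KO and WT (log2) of each of the 39 further probe sets against that of the probe set used for the same gene, with the line of equality dashed. Scd2 lies near the line, while the dim probe sets of Elovl6 and Thrsp lie 1.62 and 1.43 away from the value of the one used.

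Genes around the route were taken from 3 lists chosen by function. By limma 0 of their members were called, and 1, in NADPH and precursor supply, reached an unadjusted p under 0.05, where 14.5% of all genes did. Of 22 measured regulators of lipogenic transcription 10 were lower and 12 higher, with a median of 0.03, and 0 had groups apart. Mlx, the partner of ChREBP, differed by 0.24, Nr0b2, which encodes the repressor SHP, by 0.54, the coactivator gene Ppargc1b by 0.29 and the deacetylase gene Sirt1 by 0.18. Scap and Insig1, which carry and hold back SREBP precursors, differed by 0.01 and -0.06. Of 13 measured genes of NADPH and precursor supply 12 were lower and 1 higher, with a median of -0.13. Among them Me2, mitochondrial malic enzyme, measured 3.26, 3.46 and 3.78 in KO and 4.55, 4.39 and 4.11 in WT (limma adjusted p = 0.194). Its KO values all lay below 4, where differences carry little information. Cs, citrate synthase, differed by -0.36, and Dlat and Pdha1, subunits of pyruvate dehydrogenase, by -0.21 and -0.20.

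Of 17 measured further enzymes of lipid synthesis 4 were lower and 13 higher, with a median of 0.14. Oxsm and Mecr, of the mitochondrial route of fatty acid synthesis, differed by 0.26 and 0.19, and in Oxsm the lowest KO array lay just above the highest WT array (limma adjusted p = 0.348). Mlycd, which breaks down malonyl-CoA, differed by 0.15 and Dbi, the acyl-CoA binding protein, by -0.13. Hacd2 and Hacd1, of the same family as Hacd4, differed by -0.14 and 0.10 with overlapping groups.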

How the data were processed

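Liver RNA of 3 KO and 3 WT mice was measured on 1 mouse array each. The deposited values are log2 expression levels per probe set that the authors made with GCRMA 2.16.0 in R 2.9.1 (source: per the submitters' processing notes); the log2 scale was inferred from the values, and further settings are not given in the sources used here. GCRMA corrects background by probe sequence and normalises across arrays, and 28.9% of values lay at the lowest level, a log2 value of 2.185, so dim differences carry little information. No detection calls or scan dates were used, and the number of arrays limits the precision.

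Of 45101 probe sets, 34945 had 1 gene symbol in the platform annotation, 932 several and 9160 none listed; 64 manufacturer controls were left out of tests. For each of 18193 genes the brightest probe set on average was kept, and 10009 passed the filter. KO minus WT was fitted by lmFit and eBayes of limma 3.58.1 (R 4.3.3), two-sided and without covariates, with Benjamini-Hochberg adjustment over all 10009 genes and calls at an adjusted p under 0.05. An exact two-sided permutation test of 3 against 3 arrays cannot go below p = 0.1. On simulated data for this comparison (10009 genes, 50 altered at each size), 50% of 1.5-fold changes were called, as were 68% of 2-fold, 92% of 4-fold and 98% of 8-fold ones, beside 9 false calls. The simulated noise was independent between genes, with the SDs observed over 3 arrays per group taken as true. It held no deviations of whole arrays, such as those of KO 3 and WT 2, so these shares may not hold for the real data. All altered genes were placed in the same simulated fit, where more genes passed than the 17 called in the real fit. The Benjamini-Hochberg cut-off is less strict where more genes pass, so the shares may be too high for the real comparison. Labels call the mice biological replicates.

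The members, the lists, the tests and the alternatives were chosen with earlier results of these data known, so no list was tested. Array values were given for the called member, then in order of p until 16 members were so given, and further where roles or paralogs were compared. Related lists gave the 4 genes with the smallest p. Scap, Insig1, Hacd1, Hacd2 and further acute-phase genes were added after their values were seen. Promoter windows and motif matches came from RefSeq (GRCm38.p6). Alternatives varied the filter, normalisation, background values, probe sets per gene, variance model, array weights, replicate block and arrays used. Figures were drawn with matplotlib 3.10.9.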

Additional observations from a re-analysis of the deposited data

How the results depend on the processing

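With all arrays, 17 genes were called by limma, 1 of them a member. The call of Hacd4 ended, leaving 0 members, with no filter, quantile normalisation, median centring, every probe set by itself, an intensity trend with robust variance, the replicate block, and KO 3 and WT 2 left out. In these settings 8, 9, 8, 17 (probe sets), 9, 10 and 11 members reached an unadjusted p under 0.05. Over all features 1344, 1423, 1484, 2498 (probe sets), 1528, 1235 and 1594 did so, in the same order. The fit with no filter held 18193 genes. Median centring, the intensity trend, the replicate block and the fit without KO 3 and WT 2 held 10009. Genes called were 3 with no filter, 10 with the filter at log2 6, 3 without KO 3 and WT 2, and 0 under the replicate block, where 1235 reached an unadjusted p under 0.05 (Hacd4 at an adjusted p = 0.242 by limma). The numbers were not taken as pairs, because no label says that same-numbered mice share a litter or day. Deviations of same-numbered mice from their group means had correlations of -0.086, -0.079 and -0.141. With 3 arrays per group these cannot decide whether the mice were paired. With 1 array left out, 1 to 140 genes and 0 to 2 members were called, both highest without KO 3. The median over members, -0.148 with all arrays, ranged from -0.072 without WT 3 to -0.274 without KO 3 and WT 2. All these moves were smaller than the spread between arrays. That spread, 0.144, was about as large as the median itself, so the comparison does not show that the median was stable.

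Of 595 recomputed differences of single members, 553 kept direction and side of the threshold, 12 (all Hacd4) no longer passed, 1 (Scd1 without KO 3) newly passed and 29 changed sign; 20 members never changed sign. With all probe sets of each gene averaged, the differences were -0.009 for Agpat3, 0.012 for Hsd17b12, 0.149 for Gpam and -0.152 for Me1, and without a change of sign 0.043 for Thrsp, -0.69 for Elovl6 and 0.571 for Lpin2. Median centring gave 0.022 for Fads2 and 0.032 for Srebf1, quantile normalisation -0.005 for Elovl2, and array weights -0.067 for Me1. Without KO 3 and WT 2 they were -0.331 for Aacs, -0.02 for Lpin1 and -0.398 for Me1. With 1 array left out they ranged from -0.002 to 0.16 for Hacd3, -0.484 to 0.072 for Pklr, -0.095 to 0.536 for Aacs, -0.408 to 0.124 for Elovl6, -0.003 to 0.214 for Lpin2, -0.008 to 0.147 for Elovl1, -0.144 to 0.253 for Lpin1, -0.62 to 0.508 for Acsl3, -0.194 to 0.096 for Fads2, -0.2 to 0.252 for Srebf1, -0.08 to 0.059 for Elovl2 and -0.362 to 0.272 for Me1. None of these was called, and the cause was not tested.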
